A study of Homo sapiens with 15 samples.

Results

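10 genes known as transcriptional targets or feedback regulators of Wnt/β-catenin signalling were followed across the libraries of a study of SW480 cells. The members were taken by symbol from a deposited table of 57905 genes: AXIN2, NKD1, RNF43, ZNRF3, LEF1, TCF7, SOX9, DKK1, LGR5 and ASCL2. All 10 were listed, each on 1 row, and 9 passed a filter of at least 0.5 FPKM in at least 3 libraries, as did 17214 genes in all; LGR5 did not pass. AXIN2, RNF43 and SOX9 lie on chromosome 17, NKD1 on 16, ZNRF3 on 22, LEF1 on 4, TCF7 on 5, DKK1 on 10, LGR5 on 12 and ASCL2 on 11. SW480 is an established human colorectal cancer line. Per the labels, 4 groups of 3 libraries were used: cells with a lentiviral short hairpin RNA against the long non-coding RNA PINT, exposed to lipopolysaccharide (LPS, 1 µg/ml) for 4 h (PINT shRNA1 with LPS); cells with that hairpin and no LPS (PINT shRNA1); cells without a hairpin exposed to the same LPS dose for 4 h (LPS); and cells without a hairpin exposed to PBS (control). The labels name no non-targeting hairpin, so an effect of the target, of lentiviral delivery and of selection cannot be told apart.

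In Wnt signalling a secreted ligand binds a Frizzled receptor and an LRP co-receptor, and a cytoplasmic complex of APC, AXIN and the kinases GSK3 and CK1 then stops degrading β-catenin. β-catenin enters the nucleus and activates genes bound by the TCF/LEF factors, several of which encode inhibitors that dampen the pathway. In the colon this pathway maintains crypt stem cells. SW480 cells carry truncated APC, and β-catenin is active in them without a ligand.

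The unit is FPKM (fragments scaled by transcript length and library size), whose values correct for gene length and so allow levels of different genes to be compared, but keep no total count. The depth of each library relative to the first control library, estimated from the steps between low values, was 1.3 to 1.51 in PINT shRNA1 with LPS, 0.914 to 1.05 in PINT shRNA1, 0.848 to 0.859 in LPS and 0.809 to 1 in control. In the same order, 30950 to 31961, 30725 to 31159, 27078 to 27425 and 27536 to 28430 genes were above 0 FPKM. The part of this difference in the low values below was not tested. The targeted transcript went against the labels. LINC-PINT was at 3.54 to 4.08 FPKM in PINT shRNA1 with LPS and 4.55 to 5.34 in PINT shRNA1, against 1.91 to 2.82 in LPS and 2.51 to 2.88 in control. The hairpin names below are therefore only labels of libraries, and lower PINT was not measured in them. The cell type label was checked against 9 colorectal epithelial markers. Of these, 7 averaged at least 1 FPKM in every group, while CDX1 was listed at 0 in all 12 libraries and CDH17 at 0 to 0.018 FPKM. Of the 7 tested, 1 rose and 5 fell in each hairpin contrast. The summed level of the 9 was 1547 to 1607 FPKM in PINT shRNA1 with LPS and 1441 to 1536 in PINT shRNA1, against 2363 to 2407 in LPS and 2343 to 2667 in control. The 6 leukocyte markers summed to 2.44 to 2.91 FPKM and 2.27 to 2.79 FPKM with the hairpin label (with and without LPS), against 1.43 to 1.92 FPKM in LPS and 1.15 to 1.48 FPKM in control, with CD68 at 1.32 to 1.57 FPKM and PTPRC at 0 to 0.0713 FPKM in PINT shRNA1. The 6 fibroblast markers summed to at most 1.40 FPKM and the 3 endothelial markers to at most 0.322 FPKM in any library. The part of these marker levels in the results below was not tested.

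Each change is a log2 fold change ± SE on the log2(FPKM + 0.5) scale from a limma fit of all 12 libraries. A gene is called at a Benjamini-Hochberg adjusted p under 0.05 over the 17214 genes. Whether the replicates are separate cultures is not stated, so p-values measure the spread between these libraries. Since bulk RNA was sequenced, a change in every cell and a change in the share of expressing cells cannot be told apart.

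The members differed widely in level. AXIN2, the scaffold of the β-catenin destruction complex that is itself induced by β-catenin, was the most abundant, at 138 ± 4.01 FPKM in control (SD, n = 3), rank 323 of 57905 genes. NKD1, an inhibitor that binds Dishevelled, was at 85.6 ± 4.23 FPKM, and SOX9, a transcription factor of crypt base cells, at 79.98 ± 0.833 FPKM. RNF43, a membrane ubiquitin ligase that removes Frizzled receptors, was at 40.7 ± 1.25 FPKM, above its homologue ZNRF3 at 12.8 ± 0.863 FPKM. LEF1, a TCF/LEF factor, was at 20.1 ± 0.660 FPKM. Next came ASCL2, a stem cell transcription factor, at 10.8 ± 0.534 FPKM, TCF7, the TCF-1 factor, at 9.65 ± 1.75 FPKM, and DKK1, a secreted antagonist of LRP co-receptors, at 9.47 ± 0.451 FPKM. The control libraries of TCF7 overlapped those of ASCL2 and of DKK1, so its place in this order is not resolved, while those of ASCL2 all lay above those of DKK1. ZNRF3 lay above these 3, LEF1 above ZNRF3, and NKD1 and SOX9 overlapped. LGR5, the R-spondin receptor that marks intestinal stem cells, was at 0.273, 0.0446 and 0.0241 FPKM in the 3 control libraries. The stem cell markers OLFM4 and SMOC2 were listed at 0 in control. Of ASCL2, LGR5, OLFM4 and SMOC2, only ASCL2 was thus measured above the filter. OLFM4 and SMOC2 were picked from 29 other Wnt targets read below, of which 25 passed the filter. Among those 25, CD44, TNFRSF19 and EPHB2 were at 84.2, 10.6 and 6.47 FPKM in control. Stem cell markers in general were not surveyed.

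**Figure D1:**
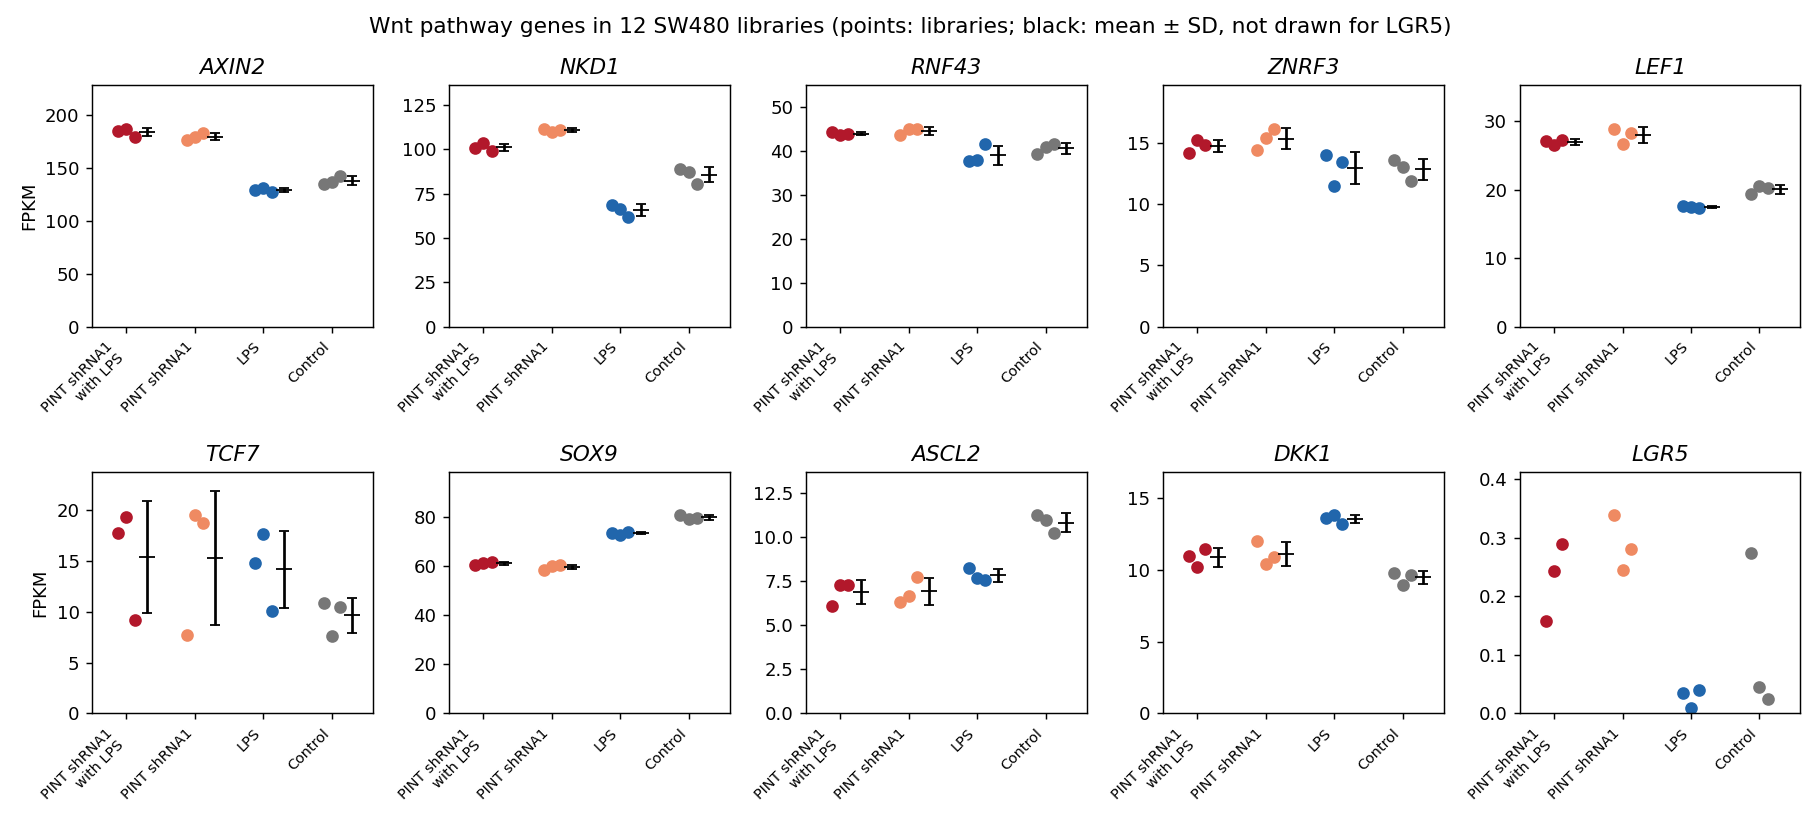
FPKM (linear axes from 0) of the 10 Wnt pathway genes in each library of the 4 groups; coloured points are libraries and black bars are the mean ± SD of 3 libraries (not drawn for LGR5). AXIN2, NKD1 and LEF1 stood higher in all 6 libraries labelled with the hairpin than in the other 6, SOX9 stood lower, ASCL2 was highest in the 3 control libraries, and DKK1 was highest in the 3 LPS libraries.

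The libraries labelled with and without the hairpin differed in most members, in both directions. The negative feedback genes AXIN2 and NKD1 and the factor LEF1 rose in the hairpin-labelled libraries both with and without LPS, while SOX9 fell in both and ASCL2 fell without LPS. In PINT shRNA1 with LPS against LPS, 4 members rose and 2 fell of 9 tested, where 29.2% of all genes were called (17.7% higher, 11.6% lower). In PINT shRNA1 against control, 5 rose and 2 fell, where 27.3% of all genes were called (16.9% higher, 10.3% lower). The median change of the 9 members was 0.17 with LPS and 0.25 without, beside 0.053 and 0.057 for all genes. The 2 groups did not overlap for 8 of 9 members in each contrast, as for 45.7% of all genes with LPS and 41.3% without. An unadjusted p under 0.05 was reached by 7 members with LPS and 8 without, as by 40.1% and 38.6% of all genes. These contrasts share no library. Called in the same direction in both were 4 members, AXIN2, NKD1, LEF1 and SOX9, which is 4 of the 6 called with LPS and 4 of the 7 called without. Among all genes, 3327 were called in the same direction in both, of 5033 called with LPS and 4693 called without. Those 3327 are 19.3% of the genes tested. DKK1 was called in opposite directions, as were 0.0697% of all genes, but its call without LPS ended in 10 of 23 alternative analyses.

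AXIN2 was at 186, 188 and 179.8 FPKM in PINT shRNA1 with LPS and 177, 179 and 183 FPKM in PINT shRNA1. It was at 129.8, 132 and 128 FPKM in LPS and 135, 137 and 143 FPKM in control. The 6 hairpin-labelled libraries thus lay above all 6 others, and the hairpin-labelled groups overlapped each other. The change was 0.51 ± 0.0328 with LPS and 0.38 ± 0.0328 without (limma, adjusted p = 2.07e-06 and 2.09e-05). AXIN2 ranked 230 and 231 among all genes in PINT shRNA1 with LPS and PINT shRNA1, against 365 and 323 in LPS and control.

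NKD1 was at 101, 103 and 99.2 FPKM in PINT shRNA1 with LPS and 112, 109.7 and 111 FPKM in PINT shRNA1. It was at 68.7, 66.6 and 62.0 FPKM in LPS and 88.7, 87.3 and 80.7 FPKM in control. No 2 groups overlapped, and the order was PINT shRNA1, PINT shRNA1 with LPS, control and LPS. The change was 0.62 ± 0.0465 with LPS and 0.37 ± 0.0465 without (limma, adjusted p = 6.22e-06 and 0.000234). NKD1 had the widest range of group means among the tested members, 0.75 on the log2 scale.

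LEF1 was at 27.1, 26.5 and 27.3 FPKM in PINT shRNA1 with LPS and 28.9, 26.7 and 28.3 FPKM in PINT shRNA1. It was at 17.6, 17.4 and 17.3 FPKM in LPS and 19.4, 20.6 and 20.3 FPKM in control. All hairpin-labelled libraries were again above all others. LEF1 rose by 0.61 ± 0.0437 with LPS and by 0.47 ± 0.0437 without (limma, adjusted p = 4.14e-06 and 3.34e-05). The antisense gene LEF1-AS1, which shares 279 exonic bases with LEF1 in GENCODE 29, was at 1.2 to 1.9 FPKM over the 12 libraries, and whether the values were counted by strand is not given in the sources used here.

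TCF7, the relative of LEF1, varied widely between replicates. It was at 17.7, 19.3 and 9.15 FPKM in PINT shRNA1 with LPS and 7.70, 19.5 and 18.8 FPKM in PINT shRNA1. It was at 14.8, 17.6 and 10.1 FPKM in LPS and 10.9, 7.64 and 10.4 FPKM in control. In each of the first 3 groups 1 library was well below its replicates, and all groups overlapped. The SD was 18.2% to 43.1% of the mean for TCF7, against 0.682% to 10.8% for the 8 other tested members. The change was 0.082 ± 0.368 with LPS and 0.55 ± 0.368 without (limma, adjusted p = 0.895 and 0.307), so at this spread a change of the size seen in LEF1 could not be detected in TCF7. The value without LPS was 0.97 without PINT shRNA1 replicate 1 and 0.32 without PINT shRNA1 replicate 2 (adjusted p = 0.0528 and 0.615), and was called in none of the 23 alternative analyses. SKP1, on the opposite strand, shares 210 exonic bases with TCF7 in GENCODE 29 and was at 101 to 136 FPKM.

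RNF43 was at 44.3, 43.8 and 43.9 FPKM in PINT shRNA1 with LPS and 43.6, 45.2 and 44.96 FPKM in PINT shRNA1. It was at 37.8, 37.9 and 41.6 FPKM in LPS and 39.3, 41.0 and 41.8 FPKM in control. The hairpin-labelled libraries were above the others by a small margin. RNF43 rose with LPS (0.17 ± 0.0443; limma, adjusted p = 0.0153) and missed the threshold without it (0.13 ± 0.0443; limma, adjusted p = 0.0501). Its call with LPS ended without LPS replicate 1, LPS replicate 2 or PINT shRNA1 with LPS replicate 1 (values of 0.15 to 0.16, adjusted p = 0.0511 to 0.0543) and with median scaling (0.12, adjusted p = 0.0969). The value without LPS was called in 5 of 23 alternatives, those without LPS replicate 1 or 3, with a pseudocount of 1, a filter of 1 FPKM or robust moderation. RNF43 shares 143 exonic bases in GENCODE 29 with SUPT4H1 on the same strand, which was at 51.7 to 68.9 FPKM, 1521 bases with the antisense gene TSPOAP1-AS1, at 2.26 to 4.15 FPKM, and 4326 bases with the same-strand gene AC004687.2, for which no value was used here. Of the other members, AXIN2, NKD1 and DKK1 share exonic bases with genes of at most 2.40 FPKM, and ZNRF3, SOX9 and ASCL2 share none with another gene.

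ZNRF3 was at 14.2, 15.2 and 14.8 FPKM in PINT shRNA1 with LPS and 14.5, 15.4 and 16.2 FPKM in PINT shRNA1. It was at 14.01, 11.5 and 13.4 FPKM in LPS and 13.6, 13.1 and 11.9 FPKM in control. The hairpin-labelled libraries were above all others. ZNRF3 rose without LPS (0.25 ± 0.0789; limma, adjusted p = 0.0378) and was not called with LPS (0.18 ± 0.0789; limma, adjusted p = 0.108). The call ended in 12 of 23 alternatives, with either other scaling, no filter, the replicate block or only the groups compared (values of 0.21 to 0.25, adjusted p = 0.0528 to 0.0775) and in 7 of 12 fits that left out 1 library, among them control replicate 3 (0.20) and PINT shRNA1 replicate 3 (0.21), with adjusted p up to 0.123. The value with LPS was 0.10 without LPS replicate 2 and 0.24 without LPS replicate 1, and was called in none of the 23.

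SOX9 was at 60.7, 61.5 and 61.7 FPKM in PINT shRNA1 with LPS and 58.7, 60.1 and 60.6 FPKM in PINT shRNA1. It was at 73.7, 73.0 and 74.0 FPKM in LPS and 80.9, 79.2 and 79.8 FPKM in control. All hairpin-labelled libraries lay below all others, and no 2 groups overlapped. SOX9 fell by 0.26 ± 0.0295 with LPS and by 0.42 ± 0.0295 without (limma, adjusted p = 0.000104 and 4.5e-06).

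ASCL2 was at 6.11, 7.30 and 7.28 FPKM in PINT shRNA1 with LPS and 6.32, 6.68 and 7.76 FPKM in PINT shRNA1. It was at 8.26, 7.70 and 7.57 FPKM in LPS and 11.2, 10.98 and 10.2 FPKM in control. The control libraries were the highest, the hairpin-labelled groups overlapped each other, and PINT shRNA1 replicate 3 was above 2 of the 3 LPS libraries. ASCL2 fell by 0.61 ± 0.0887 without LPS (limma, adjusted p = 0.000608), and the change with LPS was -0.18 ± 0.0887 (limma, adjusted p = 0.163), although those groups did not overlap. That value was -0.098 without PINT shRNA1 with LPS replicate 1 (adjusted p = 0.473), and over the 23 alternatives its adjusted p was 0.0727 to 0.473.

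LGR5, below the filter and not tested, was at 0.158, 0.243 and 0.289 FPKM in PINT shRNA1 with LPS and 0.338, 0.245 and 0.281 FPKM in PINT shRNA1. It was at 0.0341, 0.00887 and 0.0397 FPKM in LPS, and control replicate 1 stood apart from its replicates at 0.273 FPKM. All 6 hairpin-labelled libraries were above 5 of the 6 others. At this level no fold is given, and relative depth was also higher in PINT shRNA1 with LPS (1.3 to 1.51) than in LPS (0.848 to 0.859); its part in this difference was not tested.

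**Figure D2:**
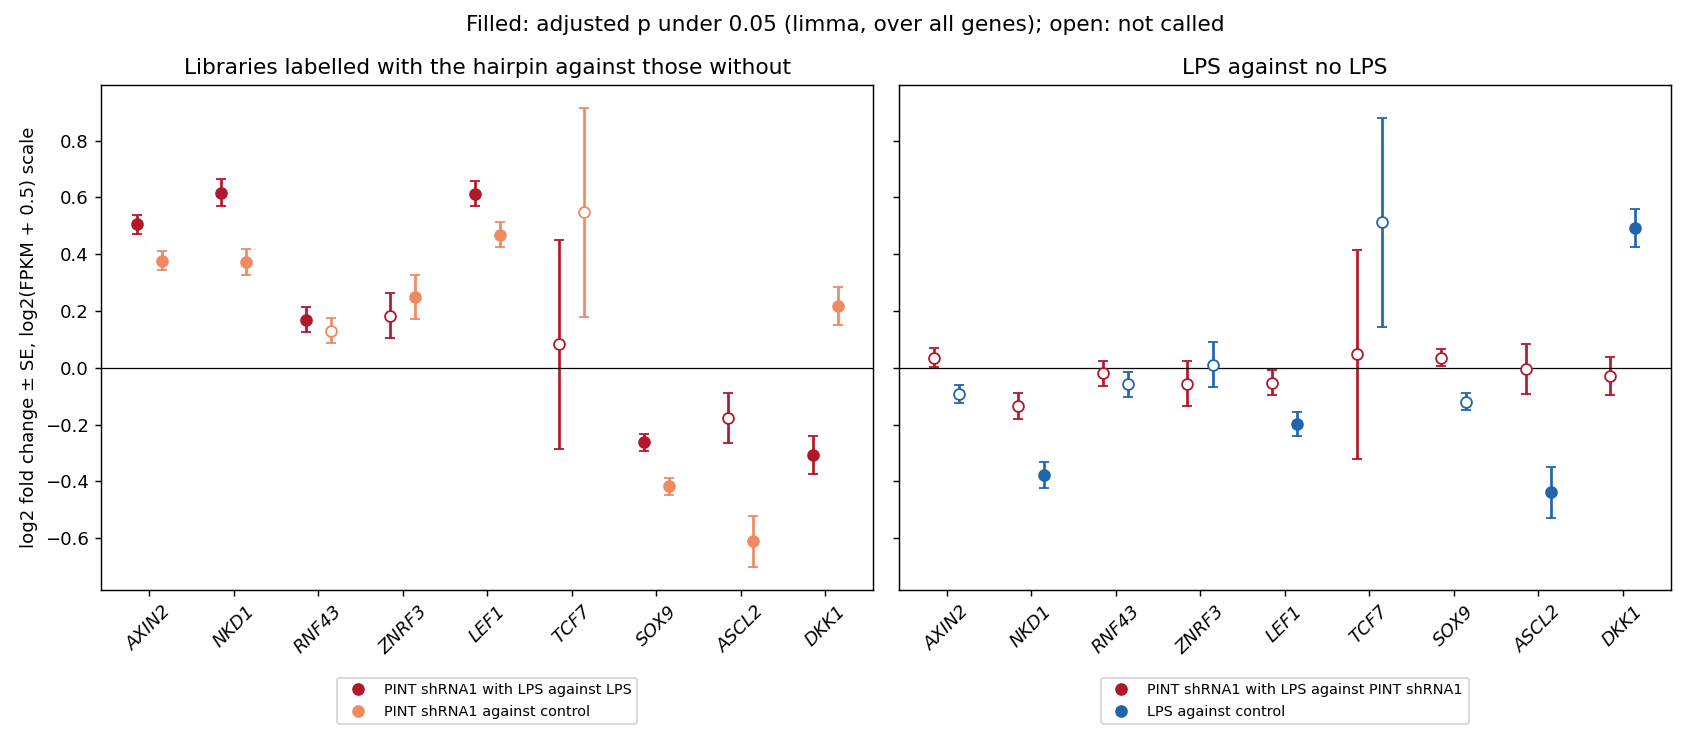
Log2 fold change ± SE (limma) of the 9 tested members for the hairpin label (left panel) and for LPS (right panel); filled points passed an adjusted p of 0.05 over all genes. AXIN2, NKD1 and LEF1 lie above 0 and SOX9 below 0 in both hairpin contrasts, and LPS changes called without the hairpin label (NKD1, LEF1, ASCL2, DKK1) have open points between -0.13 and 0 with it.

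Fewer genes were called after 4 h of LPS. In LPS against control, 1 member rose and 3 fell of 9 tested, where 2.76% of all genes were called (1.57% higher, 1.19% lower). The groups did not overlap for 6 of 9 members, as for 19.2% of all genes, and 6 had an unadjusted p under 0.05, as did 16.8% of all genes. The median of the 9 was -0.092, beside -0.038 for all genes. DKK1 was the member that rose, by 0.49 ± 0.067 (limma, adjusted p = 0.00256). NKD1 fell by 0.38 ± 0.0465, ASCL2 by 0.44 ± 0.0887 and LEF1 by 0.20 ± 0.0437 (limma, adjusted p = 0.00136, 0.027 and 0.0401). AXIN2 and SOX9 were lower in all 3 LPS libraries than in any control library, at -0.092 ± 0.0328 and -0.12 ± 0.0295, and were not called (limma, adjusted p = 0.181 and 0.0623). With median scaling they were at -0.04 and -0.067, with quantile normalization at -0.14 and -0.13, and SOX9 was called with no filter (adjusted p = 0.0469). RNF43, ZNRF3 and TCF7 overlapped between the groups. The calls of NKD1 and DKK1 held in all 23 alternative analyses. The call of LEF1 ended in 14 of them and in 9 of the 12 fits without 1 library (adjusted p = 0.0563 to 0.119 in those, for instance 0.119 and a value of -0.18 without control replicate 2). That of ASCL2 ended in 8, among them those without control replicate 1 or 2 or LPS replicate 2 or 3 (values of -0.43 to -0.41, adjusted p = 0.0754 to 0.0887).

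DKK1 was at 10.9, 10.2 and 11.5 FPKM in PINT shRNA1 with LPS and 12.03, 10.4 and 10.9 FPKM in PINT shRNA1. It was at 13.6, 13.8 and 13.2 FPKM in the LPS libraries and 9.81, 8.96 and 9.65 FPKM in control. The LPS libraries were the highest, the control libraries the lowest, and both hairpin-labelled groups lay between them and overlapped each other. DKK1 fell by 0.31 ± 0.067 in the first of the hairpin contrasts, with LPS on both sides, and rose by 0.22 ± 0.067 in the one without LPS (adjusted p = 0.00605 and 0.0344, limma). The second call ended in 10 of 23 alternatives, with either other scaling, no filter, library weights or only the groups compared (values of 0.17 to 0.22, adjusted p = 0.0523 to 0.0878) and in 5 of the 12 fits without 1 library, those without control replicate 2 or 3, PINT shRNA1 replicate 1 or 3, or PINT shRNA1 with LPS replicate 1 (adjusted p = 0.0501 to 0.122, with values down to 0.16).

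Among libraries labelled with the hairpin, no member passed the test for LPS: in PINT shRNA1 with LPS against PINT shRNA1, limma called 0 of 9, where 0.186% of all genes were called (0.163% higher, 0.0232% lower), and 1 had an unadjusted p under 0.05, as did 8.76% of all genes. That 1 was NKD1, lower in all 3 LPS-exposed libraries at -0.13 ± 0.0465 (limma, adjusted p = 0.436). ASCL2 was at -0.0038 ± 0.0887 and DKK1 at -0.029 ± 0.067. SOX9 was higher in all 3 libraries with LPS, at 0.035 ± 0.0295 (limma, adjusted p = 0.787). NKD1 and SOX9 were the 2 members whose groups did not overlap, as for 19.3% of all genes. The difference between the LPS responses with and without the hairpin label was tested as an interaction. Limma called 0 of 9 members, where 0.128% of all genes were called (0.0349% higher, 0.0929% lower), and 6 had an unadjusted p under 0.05, as did 7.74% of all genes. DKK1 had the smallest adjusted p, with an interaction of -0.52 ± 0.0948 (limma, adjusted p = 0.0941). The interaction was 0.43 ± 0.125 for ASCL2, 0.24 ± 0.0658 for NKD1, 0.15 ± 0.0417 for SOX9, 0.15 ± 0.0617 for LEF1 and 0.13 ± 0.0463 for AXIN2 (limma, adjusted p = 0.328 to 0.632). For these 6 genes the LPS response was nearer 0 with the hairpin label in the analysis reported, and the difference did not pass the threshold. Over the alternatives, AXIN2 ranged from 0.023 to 0.078 with the label and from -0.14 to -0.04 without it. SOX9 ranged from 0.023 to 0.078 with the label and from -0.13 to -0.067 without it. The sizes overlap, so which response was nearer 0 is not settled for AXIN2 and SOX9.

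Promoter windows of 300 bases, 250 before and 50 after the start of transcription in RefSeq (GRCh38.p14), were at hand for 4 of the 10 members: DKK1, LEF1, RNF43 and TCF7, with 2 windows each for the last pair and 6 in all. They were searched on both strands for CTTTGA, 1 form of the core bound by TCF/LEF factors, and for CTTTGAT, which contains it. Other forms of the core were not searched. Of 35116 windows of this length, 12.9% hold CTTTGA and 2.62% hold CTTTGAT. Of the 6 windows of members, 1 holds CTTTGA, that of DKK1, with 1 match on each strand, whose leftmost bases lie 149 and 95 bases before the start, and none holds CTTTGAT. The windows of DKK1, the member that rose after LPS, and of LEF1, which rose with the hairpin label, are printed on the strand of the gene, with matches in capitals. DKK1 is at chr10:52314031-52314330 on the plus strand and LEF1 at chr4:108166252-108166551 on the minus strand.
DKK1: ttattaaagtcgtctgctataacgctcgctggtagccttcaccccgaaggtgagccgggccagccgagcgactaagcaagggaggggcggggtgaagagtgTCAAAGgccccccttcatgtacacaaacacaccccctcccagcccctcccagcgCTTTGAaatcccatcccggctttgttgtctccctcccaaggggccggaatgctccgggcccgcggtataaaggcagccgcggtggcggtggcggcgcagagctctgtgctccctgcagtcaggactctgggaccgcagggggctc
LEF1: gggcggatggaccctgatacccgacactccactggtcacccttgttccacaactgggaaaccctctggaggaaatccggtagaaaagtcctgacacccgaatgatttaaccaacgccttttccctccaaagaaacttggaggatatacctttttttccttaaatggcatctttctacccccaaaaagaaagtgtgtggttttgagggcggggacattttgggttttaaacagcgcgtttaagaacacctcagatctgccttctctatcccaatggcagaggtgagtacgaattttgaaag
A match is a run of letters and not a binding site, and its absence says only that these letters are not in this window.

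Wnt genes other than the members were read by role. Of 25 tested targets of the pathway outside the members, 9 rose and 5 fell in PINT shRNA1 with LPS against LPS and 8 rose and 7 fell in PINT shRNA1 against control (median changes 0.16 and -0.02). After LPS without the hairpin label 2 rose and 4 fell (median -0.098), and with it limma called 0 (3 at an unadjusted p under 0.05). The called totals of 14, 15 and 6 of 25 stand beside 29.2%, 27.3% and 2.76% of all genes called in these contrasts, and the called genes of the list went both ways. ETS2, a transcription factor, was at 79.2 ± 0.736 FPKM in PINT shRNA1 with LPS against 31.9 ± 0.647 FPKM in LPS (SD, n = 3 each), a rise of 1.296 ± 0.0329, with 1.29 ± 0.0329 without LPS. CCND1, the gene of cyclin D1, was at 310.4 ± 3.74 FPKM in PINT shRNA1 with LPS against 534 ± 2.31 FPKM in LPS and fell by 0.78 ± 0.0242. SLC12A2, an ion cotransporter, fell with the hairpin label by 0.68 ± 0.0399 with LPS and 0.48 ± 0.0399 without, and TNFRSF11B, the gene of osteoprotegerin, rose by 0.65 ± 0.0683 without LPS. The largest adjusted p of these changes was 7.6e-05 (limma).

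SP5 and BAMBI had group means in the order seen in NKD1, with overlapping libraries in the hairpin-labelled pair. That order of means is not particular to them. The tested members LEF1 and RNF43 and the other targets ETS2, L1CAM, TCF7L2, DKK4, TNFRSF19 and EPHB3 had it too. In EPHB3 the means of PINT shRNA1 with LPS and control were nearly equal, at 2.553 and 2.551 FPKM. The share of all genes with this order was not counted. SP5, a zinc finger factor, was at 33.1 to 34.9 FPKM in PINT shRNA1 with LPS, 32.2 to 39.0 in PINT shRNA1, 15.8 to 18.3 in LPS and 20.9 to 24.7 in control. It rose by 0.95 ± 0.0846 with LPS and 0.59 ± 0.0846 without and fell by 0.40 ± 0.0846 after LPS (limma, adjusted p = 2.07e-05, 0.000591 and 0.0349). BAMBI, a pseudoreceptor of the TGF-β family, was at 68.9 ± 1.68 FPKM in PINT shRNA1 with LPS and 69.9 ± 3.45 in PINT shRNA1, against 47.4 ± 1.29 in LPS and 56.6 ± 1.38 in control. It rose by 0.53 ± 0.0432 with LPS and by 0.30 ± 0.0432 without, and fell by 0.25 ± 0.0432 after LPS (limma, adjusted p = 1.03e-05, 0.000563 and 0.0109). KIAA1199, a hyaluronan-degrading factor, fell by 0.86 ± 0.112 after LPS (limma, adjusted p = 0.00192), while SLC12A2 rose by 0.25 ± 0.0399 (limma, adjusted p = 0.00679).

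Of 32 tested ligands, receptors and secreted modulators, 5 rose and 7 fell in PINT shRNA1 with LPS against LPS (median 0.078), 6 rose and 7 fell in PINT shRNA1 against control (median 0.015), and 3 rose and none fell after LPS without the hairpin label (median -0.05). The called totals of 12, 13 and 3 of 32 stand beside 29.2%, 27.3% and 2.76% of all genes. All 3 called after LPS were ligand genes. WNT10A was at 11.1 ± 0.132 FPKM in LPS against 6.23 ± 0.537 in control and rose by 0.78 ± 0.0961. WNT5A, best known for signalling without β-catenin, was at 80.6 ± 2.00 FPKM in LPS against 57.2 ± 1.21 in control and rose by 0.49 ± 0.0412. WNT9A rose by 0.58 ± 0.0841 (limma, adjusted p = 0.00131, 9.24e-05 and 0.00405 for the 3). Both WNT10A and WNT5A fell in PINT shRNA1 with LPS against LPS, by 0.94 ± 0.0961 and 0.43 ± 0.0412 (limma, adjusted p = 5.44e-05 and 3.72e-05). WNT9A stood higher instead, at a mean of 1.98 FPKM in PINT shRNA1 with LPS against 1.68 in LPS. In PINT shRNA1 the means were 1.33 FPKM for WNT9A, 3.84 for WNT10A and 54.4 for WNT5A, each below PINT shRNA1 with LPS. There WNT10A and WNT5A averaged 5.53 and 59.8 FPKM. WNT10A was thus also lower in PINT shRNA1 than in control. The interactions of WNT10A and WNT5A were -0.31 ± 0.136 and -0.36 ± 0.0583 (limma, adjusted p = 0.644 and 0.0552). Among receptors, FZD7 rose by 0.62 ± 0.0763 and FZD1 fell by 0.64 ± 0.0735 in PINT shRNA1 against control, and FZD5 fell by 0.84 ± 0.0896 in PINT shRNA1 with LPS against LPS. WNT7A fell by 0.77 ± 0.0893 and DKK3, a relative of DKK1, rose by 0.80 ± 0.0842 in PINT shRNA1 against control. The largest adjusted p of these 5 changes was 0.000228 (limma).

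The cytoplasmic machinery was read next. Of 19 tested genes of the destruction complex and signal transduction, 5 rose and 1 fell in PINT shRNA1 with LPS against LPS (median 0.12), and 1 rose and 1 fell in PINT shRNA1 against control (median 0.094). The total of 6 of 19 with LPS is near the 29.2% of all genes called, and that of 2 of 19 without LPS is below the 27.3%. CTNNB1, the gene of β-catenin, was the member that fell in both. It was at 237 ± 1.74 FPKM in PINT shRNA1 with LPS against 292 ± 10.7 FPKM in LPS, and at 257 ± 7.35 FPKM in PINT shRNA1 against 298 ± 10.4 FPKM in control, falling by 0.30 ± 0.0375 and 0.21 ± 0.0375 (limma, adjusted p = 0.000207 and 0.00199). TNKS, the gene of tankyrase, which marks AXIN for degradation, rose by 0.39 ± 0.0593 in PINT shRNA1 against control (limma, adjusted p = 0.000769). With LPS, NKD2, the homologue of NKD1, rose by 0.58 ± 0.109, and the Dishevelled genes DVL3 and DVL1 by 0.28 ± 0.047 and 0.299 ± 0.0777 (limma, adjusted p = 0.00263, 0.00116 and 0.0148). APC was at -0.11 ± 0.178 and AXIN1 at -0.33 ± 0.168 in PINT shRNA1 against control and neither was called (limma, adjusted p = 0.679 and 0.17). Limma called 0 of the 19 after LPS with the hairpin label and 0 without it (2 and 5 at an unadjusted p under 0.05).

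Of 17 tested nuclear partners and corepressors, 4 rose and none fell in PINT shRNA1 with LPS against LPS (median 0.12), and 3 rose and 2 fell in PINT shRNA1 against control (median 0.088), which is near the share of all genes called. Limma called 0 after LPS with the hairpin label and 0 without it (1 and 2 at an unadjusted p under 0.05). BCL9, a β-catenin coactivator, rose in both, by 0.46 ± 0.0724 and 0.33 ± 0.0724 (limma, adjusted p = 0.000918 and 0.00642), and its homologue BCL9L fell in PINT shRNA1 against control by 0.48 ± 0.153 (limma, adjusted p = 0.0393). The chromatin remodellers CHD8 and SMARCA4 rose with LPS by 0.44 ± 0.105 and 0.25 ± 0.071, and HDAC1 and CTBP1 were at 0.17 ± 0.0402 and -0.27 ± 0.0666 without LPS (limma, adjusted p = 0.00995, 0.0238, 0.0112 and 0.0122).

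**Figure D3:**
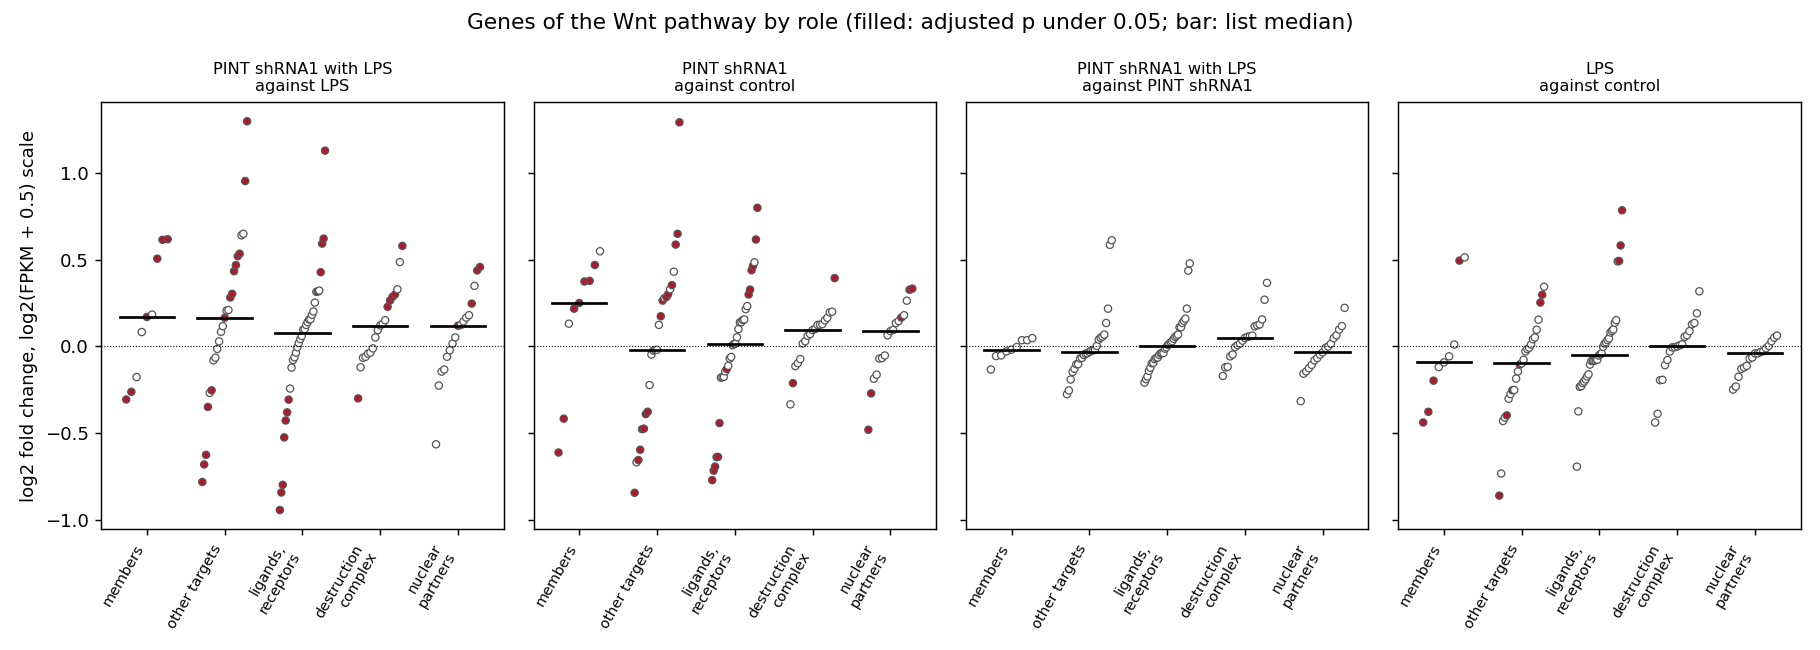
Log2 fold changes of the 9 tested members and of the 4 groups of other Wnt pathway genes in 4 contrasts, each point 1 gene in order of its change, filled where the adjusted p was under 0.05, with a bar at the median of the list. Points of most lists lie on both sides of 0 in the hairpin contrasts, and none is filled in PINT shRNA1 with LPS against PINT shRNA1.

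The genes most like AXIN2 and NKD1 over the 12 libraries were found by the root mean square difference of log2 values centred on each gene's mean. For AXIN2, whose own values had a root mean square of 0.225, these were DHX38 (0.0373), HNRNPUL2 (0.0519), BCS1L (0.0532), PPP1R9B (0.0532) and SLC29A1 (0.0571). For NKD1, at 0.289, they were ITPKB (0.0487), FRAS1 (0.065), TUBG2 (0.0657), ANKZF1 (0.0718) and WBP1L (0.0752). No member and no gene of the 4 Wnt lists was among these 10. The members and lists hold only 9, 25, 32, 19 and 17 of the 17214 genes tested, so this absence says little.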

How the data were processed

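The authors deposited 1 table of FPKM per Ensembl gene with symbols. Per the submitters' processing notes, the tools were StringTie 1.3.4d, HISAT2 2.1.0 and fastp and the build was GRCh37/hg19, with no role given for each. The labels list 15 samples, because each PINT shRNA1 number has 2, while the table has 1 column for each number, and whether a column holds 1 or both is not recorded. Another 6 columns were not used.

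In R 4.3.3, limma 3.58.1 was fitted once to log2(FPKM + 0.5) of the 12 libraries, with 4 group means, an intensity trend and two-sided contrasts. The fit was tested on simulated data with changes set in the LPS group only, which does not cover the hairpin contrasts. Total counts are unknown, so precision is the SE of the fit. The 10 members, the Wnt lists and the rules for named genes were chosen with earlier results of these data known. The rules took all members and up to 4 called genes with the smallest p from each list and contrast. They also took 5 genes most like AXIN2 and the member of widest range. Some values are given beyond these rules, after they were seen. They are those of SP5 in both hairpin contrasts, of BAMBI without LPS, and of APC, AXIN1, OLFM4 and SMOC2. The levels of CD44, TNFRSF19 and EPHB2 and the order of means in DKK4, TNFRSF19 and EPHB3 are also beyond them. So are the interactions of WNT10A and WNT5A and the levels of WNT9A, WNT10A and WNT5A in the hairpin-labelled libraries. Exon overlaps are from GENCODE 29 (GRCh38), another build. Alternatives were median scaling, quantile normalization, pseudocounts of 0.1 and 1, no filter, a filter of 1 FPKM, no trend, robust moderation, the replicate number as a block, only the groups compared, and fits without each library in turn. Weights of libraries by group were an alternative chosen after seeing the data.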

Additional observations from a re-analysis of the deposited data

How the results depend on the processing

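The number of members called in LPS against control, 4 in the analysis reported, was 2 with the replicate block, 2 with library weights per group, 2 when only the groups compared were fitted and 2 to 4 when 1 library was left out; the genes lost were LEF1 and ASCL2. Fewer samples enter the last 2 settings, and the cause for the others was not tested. The counts of the other contrasts stayed within 1.5 times: 5 to 8 for PINT shRNA1 against control, 5 or 6 for PINT shRNA1 with LPS against LPS, and 0 for the 2 remaining contrasts under every alternative that could be fitted (the interaction needs all 4 groups). Same-numbered libraries did not deviate together (r of -0.048 to 0.057 over 18 pairs), so the numbers were not taken as pairs.

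Of 1026 values of single members under the alternatives, 954 kept direction and side of the threshold, 48 lost a call, 6 gained one and 18 changed sign, none of them a called value. LPS against control for ZNRF3 ranged from -0.046 to 0.092 without 1 library. TCF7 ranged from -0.14 to 0.41 in PINT shRNA1 with LPS against LPS and from -0.37 to 0.37 in PINT shRNA1 with LPS against PINT shRNA1. In PINT shRNA1 with LPS against PINT shRNA1, RNF43 was at 0.024, DKK1 at 0.014 and ASCL2 at 0.039 with median scaling, DKK1 at 0.0036 and ASCL2 at 0.038 with quantile normalization, and DKK1 ranged from -0.073 to 0.028 and ASCL2 from -0.062 to 0.076 without 1 library. Calls over all genes, 475 in LPS against control, were 129 with only the groups compared, 264 with library weights, 311 with the replicate block and 288 to 411 without 1 library. In PINT shRNA1 with LPS against PINT shRNA1 there were 32, against 59 with median scaling, 57 with quantile normalization, 65 with library weights, 17 with the replicate block, 18 without the trend and 19 to 40 without 1 library. The interaction had 22, and 14 with the replicate block. LGR5 was below the filter and not tested.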
